A study of Anopheles gambiae with 6 samples.

Results

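A group of 101 probe sets that were bright in the larval salivary gland of the malaria mosquito Anopheles gambiae, and far dimmer in the whole larva, is described here by its levels, ranks, replicate spread and share of the signal. They were chosen from 16884 probe sets with identifiers of Anopheles form by a rule on the measured values. The mean log2 value on the 3 gland arrays had to be at least 10, the gland mean had to exceed the mean of the 3 whole-larva arrays by at least 2 (4-fold), and the lowest gland array had to lie above the highest whole-larva array. Level, difference and separation of the groups therefore chose the members. They are given as a description, with no test.

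RNA came from fourth-instar larvae of the G3 strain, reared at 28 °C without any treatment. Salivary glands were dissected from larvae, with 50 animals in each of 3 pools, and the comparison group was made of whole larvae, with 200 animals in each of 3 pools. Each pool, a biological repeat per the labels, was hybridized to its own Affymetrix array, on which a probe set is a group of short probes read together as a measure of 1 or more related transcripts. The comparison asked which transcripts were present in the gland and more abundant there than in the animal as a whole. Since glands are part of every whole larva, gland RNA is present in both groups. In RNA from a pooled tissue, a change in the share of gland cells and a change in RNA per cell cannot be told apart.

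The salivary glands of a mosquito larva are a pair of secretory organs made of a single layer of large epithelial cells, which release their products towards the mouth during feeding. They are a separate organ from the adult gland, which is built at metamorphosis and supplies the saliva of the blood meal. Gland cells that export protein typically devote a large share of their messenger RNA to a limited set of secreted products. The files do not pair the identifiers with genes, and of the members 0 matched the reference table of 15165 genes, so no member is given a gene name, a role or a sequence, and markers of other cell types could not be read. An identifier names a chromosome arm, a number, a variant and, for most, a coding (CDS) or untranslated (UTR) region. By Affymetrix convention the suffix _at marks probes for 1 transcript, _a_at probes for several transcripts of 1 gene, and _s_at probes that match transcripts of several genes.

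The arrays were alike in their overall level. All Anopheles probe sets together had a median log2 RMA value of 5.84 ± 0.014 on gland arrays against 5.87 ± 0.043 on whole-larva arrays (mean ± SD of 3 arrays each), and Pearson's r across probe sets was 0.971 to 0.986 among gland arrays and 0.926 to 0.941 among whole-larva arrays. The 3′ minus 5′ difference of the actin control probe sets, a measure of RNA quality, was 1.03 ± 0.12 on gland arrays against 1.47 ± 0.16 on whole-larva arrays (log2; SD, n = 3 each). That of the Gapdh control probe sets was 0.777 ± 0.14 against 0.881 ± 0.058. Their part in the results below was not tested. No probe set of another form met the rule (0 of 5877).

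The members made up 0.598% of the Anopheles probe sets and 20.5% of the 492 whose gland mean reached 10, which was 2.91% of all. Their gland means ran from 10.02 to 14.72, with a median of 11.64, and their whole-larva means from 5.66 to 12.61, with a median of 8.69. The difference between gland and whole larva had a median of 3.16 (log2), or 8.93-fold, with an interquartile range of 2.33 to 4.03. Over all Anopheles probe sets the median difference was 0.068, and 1.08% of them were at least 4-fold higher in gland. Of the members, 52 differed by at least 8-fold, 27 by at least 16-fold and 1 by at least 32-fold. Put the other way, the whole-larva value was between 2.83% and 25% of the gland value, with a median of 11.2%.

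**Figure D1:**
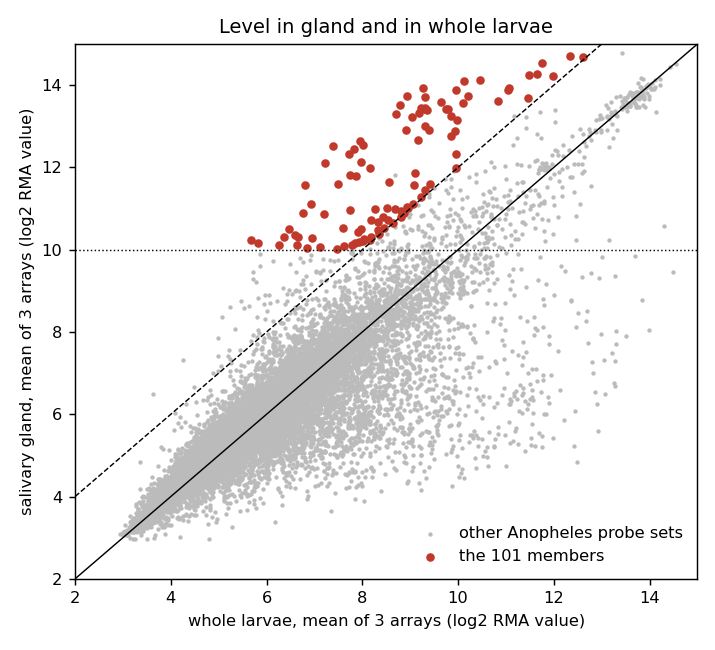
Mean log2 RMA value of each Anopheles probe set in gland (vertical axis) against whole larvae (horizontal axis), 3 arrays each, with the 101 members in red. The solid line marks equal values, the dashed line a 4-fold difference and the dotted line the gland level of 10; the members lie above both of the latter by the rule that chose them.

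The lowest gland array stood clear of the highest whole-larva array by a median of 2.32 (log2), or 5.00-fold. This gap was at least 2-fold for 98 members, 4-fold for 61 and 8-fold for 24. Over all Anopheles probe sets, 24% had every gland array above every whole-larva array. In limma's fit across all 16884 probe sets, 93 members and 2.39% of all probe sets were 2-fold or more higher in gland at an adjusted p (Benjamini-Hochberg) below 0.01. Since the rule used that contrast, the count is a description. The 8 members that missed it each had a large replicate SD in 1 or both tissues, the lowest of these being 1.33.

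By level and by difference, probe sets just outside the rule had values close to those of members. The gland mean was 10.02, 10.05 and 10.07 for the lowest 3 members and 9.98, 9.97 and 9.91 for the highest 3 probe sets left out on level alone. The smallest differences inside were 2.0008, 2.0009 and 2.02, and the largest outside were 1.997, 1.996 and 1.98. On the separation of the groups, the smallest gaps inside were 0.41, 0.45 and 0.66, and the 3 probe sets that met both thresholds with overlapping groups had gaps of -0.30, -1.34 and -3.65.

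The brightest members ranked among the most intense transcripts of the gland. By mean level, 8 members stood among the top 20 Anopheles probe sets in gland, 13 among the top 50 and 22 among the top 100. In whole larvae 0 stood among the top 100, 3 among the top 200 and 36 among the top 1000. The median rank was 233 in gland and 1382 in whole larvae, against 251 and 284 for the other bright probe sets. By the rule, every member had a gland mean of at least 10, where members were 20.5% of the probe sets. The 22 among the top 100 in gland were near that share, and the 8 among the top 20 were above it. The rank of a member moved by a median of 67 places across the 3 gland arrays and of 765 places across the 3 whole-larva arrays. A span in places depends on how many probe sets lie at like levels. Spans of other probe sets at like ranks were not computed, so these figures do not compare replicate spread.

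Ag.3R.1208.0_CDS_at, on arm 3R, had the second highest level in the gland. It measured 14.73, 14.76 and 14.66 on the gland arrays and 12.31, 12.34 and 12.37 on the whole-larva arrays. Replicates of both tissues were tight, with SDs of 0.053 and 0.026 (n = 3 each), and the difference was 2.38, or 5.20-fold. Ag.3R.919.0_CDS_at, at gland rank 3, measured 14.66, 14.63 and 14.77 in gland and 12.00, 12.87 and 12.96 in whole larvae, a difference of 2.07. It was the member with the highest level in whole larvae. Ag.3R.1419.0_CDS_at, at gland rank 4, measured 14.26, 14.50 and 14.85 in gland and 11.45, 12.39 and 11.44 in whole larvae, a difference of 2.78. All 3 were also among the brighter transcripts of the whole larva, at ranks 164, 142 and 228.

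Members with a gland level of 14 or more had smaller differences than those just below. Of the 18 Anopheles probe sets at 14 or above in gland, 8 were members, with a median difference of 2.70. At 13 to 14 there were 23 members of 114, with a median difference of 3.93, and at 12 to 13 there were 14 of 65, with a median of 4.08. At 11 to 12, 17 of 105 were members (median 2.49), and at 10 to 11, 39 of 190 (median 2.52). Below 14, members were thus 16.2% to 21.5% of the probe sets at each level. All Anopheles probe sets, members included, ran the other way, with a median difference of 0.850 at 14 or above and 0.0935 at 13 to 14. RMA values can understate differences of very bright probe sets, and the part of this in the members' values was not tested.

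The 10 largest differences belonged to members at gland ranks from 28 to 240. Ag.X.814.0_CDS_at measured 12.32, 12.25 and 13.02 in gland and 7.44, 7.84 and 6.88 in whole larvae, a difference of 5.14, and lay at rank 162 in gland and 3114 in whole larvae. Ag.3L.1596.0_CDS_at measured 13.60, 13.92 and 13.71 in gland and 8.80, 9.09 and 8.93 in whole larvae. It lay at rank 47 in gland, and its difference of 4.80, or 28.0-fold, came with SDs of 0.17 and 0.15 (n = 3 each). Ag.3L.1686.0_CDS_at measured 11.48, 11.56 and 11.68 in gland and 6.50, 6.64 and 7.28 in whole larvae, a difference of 4.77. Its whole-larva level was at rank 4615.

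Of the summed anti-logged Anopheles signal, the members held 15.1% ± 2.72 on gland arrays and 1.65% ± 0.299 on whole-larva arrays (SD, n = 3 each). By array the shares were 12.6%, 14.7% and 18.0% in gland and 1.32%, 1.89% and 1.74% in whole larvae. The gland share was 9.17 times the whole-larva share by means, and 6.68 times between the lowest gland and the highest whole-larva array. The other 391 probe sets with a gland mean of at least 10 held 48.5% ± 2.64 on gland arrays and 43.5% ± 3.11 on whole-larva arrays (SD, n = 3 each). The sums weigh probe sets by brightness, which depends on the probes as well as on the transcript, so the shares are of signal and not of RNA molecules.

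**Figure D2:**
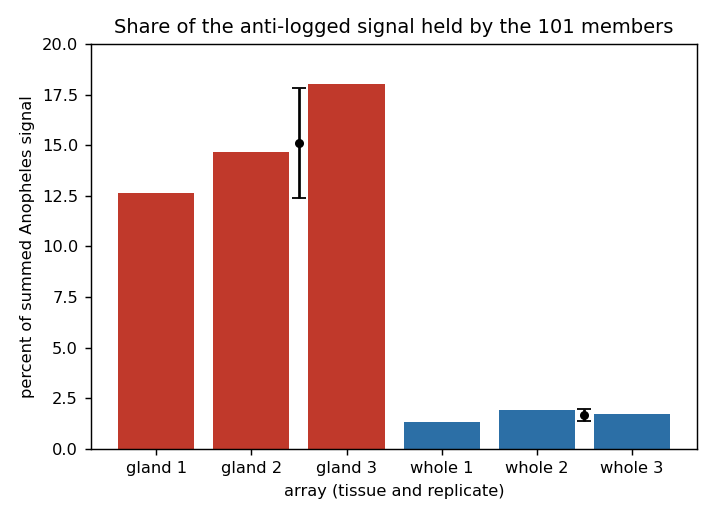
Percent of the summed anti-logged Anopheles signal held by the 101 members on each of the 6 arrays (bars), with the mean and SD of each tissue as a black point with error bars (n = 3 each). Gland arrays run from 12.6% to 18.0% and whole-larva arrays from 1.32% to 1.89%.

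Within the gland the members' signal was spread over many transcripts. The 10 brightest on each array carried 33.0%, 32.0% and 29.0% of it on the 3 gland arrays, and 18, 19 and 21 members were needed to reach 50% of it. In whole larvae the 10 brightest carried 45.3%, 47.6% and 42.7% of the members' signal. Single members were small parts of the whole: Ag.3R.1208.0_CDS_at took 0.615% ± 0.023 of the Anopheles signal in gland (SD, n = 3) and 0.109% in whole larvae.

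Gland replicate 3 gave the highest of the 3 gland values for 76 of the 101 members and gland replicate 1 the lowest for 71. Among the other 391 probe sets bright in gland, replicate 3 was highest for 27.6% and replicate 1 lowest for 19.4%. The members' median was 11.33, 11.80 and 12.10 on gland arrays 1, 2 and 3, while the median of the other bright probe sets was 11.58, 11.48 and 11.52. Of the 101 brightest Anopheles probe sets on an array, 16, 19 and 35 were members on gland arrays 1, 2 and 3. A single array cannot be tested against the other 2, and whether the pool or the array differed cannot be told apart.

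**Figure D3:**
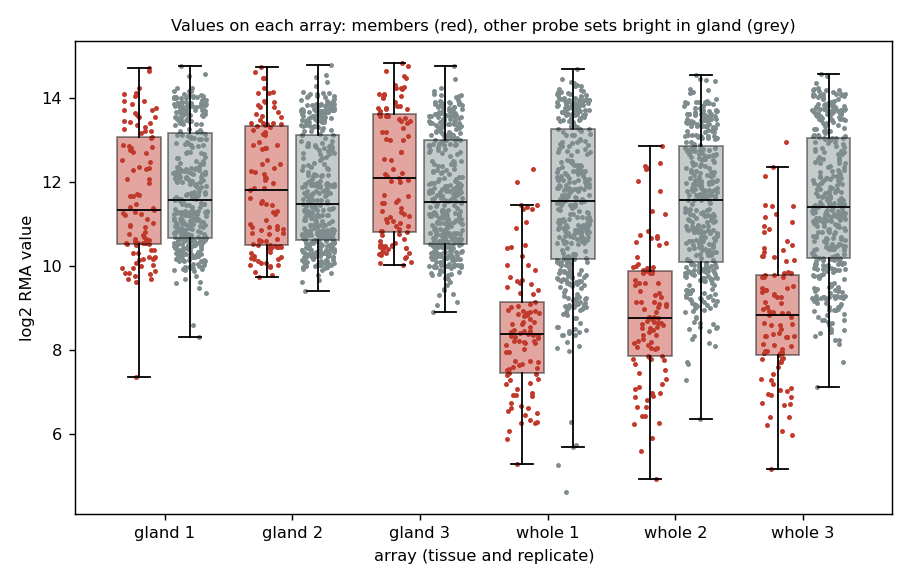
Log2 RMA values of the 101 members (red) and of the 391 other probe sets with a gland mean of at least 10 (grey) on each array; boxes show the quartiles and the median. The members' median is 11.33, 11.80 and 12.10 on the gland arrays and 8.38, 8.75 and 8.84 on the whole-larva arrays, and that of the grey set stays between 11.41 and 11.58 on all 6.

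In whole larvae, replicate 1 gave the lowest of the 3 values for 59 members (58.4%) and replicate 2 the highest for 56 (55.4%). Of 1444 other probe sets in the members' interquartile range of whole-larva level, replicate 1 was lowest for 44.0% and replicate 2 highest for 37.7%. For 13 members (12.9%), whole-larva replicate 1 lay at least 2-fold below both other arrays, against 2.56% of the other bright probe sets and 1.76% of all Anopheles ones. A low value on 1 whole-larva array lowers the mean that the rule used, so the rule itself favours such members. These comparison sets were not matched in whole-larva level, with a median of 11.43 for the other bright probe sets and 8.69 for the members. Ag.3L.1783.0_CDS_at was among the 13, with 9.04, 11.25 and 11.06 in whole larvae against 14.13, 14.15 and 14.08 in gland. Ag.UNKN.1355.0_CDS_at, which names no placed arm, measured 6.96, 10.72 and 10.24 in whole larvae and 13.45 ± 0.48 in gland (SD, n = 3). Without whole-larva replicate 1, their differences were 2.97 and 2.97, against 3.67 and 4.14 with it.

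**Figure D4:**
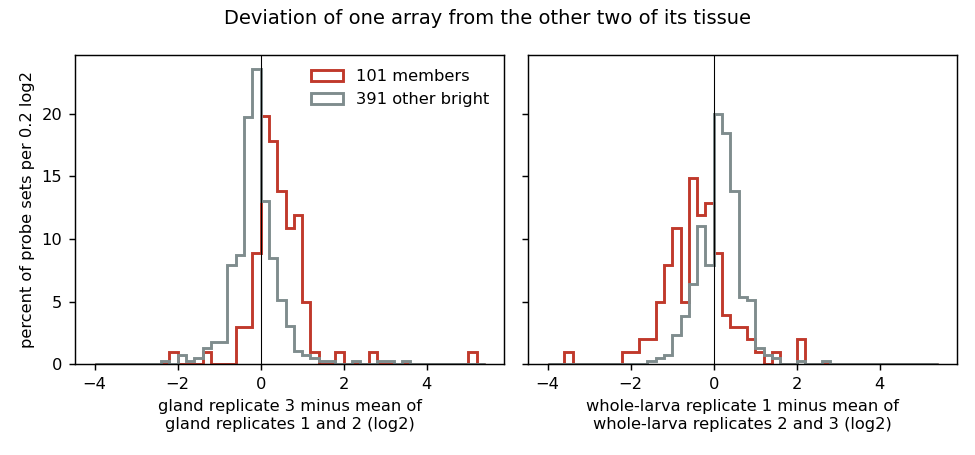
Left, gland replicate 3 minus the mean of gland replicates 1 and 2; right, whole-larva replicate 1 minus the mean of whole-larva replicates 2 and 3 (log2), as the percent of the 101 members (red) and of the 391 other bright probe sets (grey) per bin of 0.2. The members' median is 0.32 on the left and -0.40 on the right, against -0.14 and 0.17 for the grey set.

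The replicate SD of a member had a median of 0.272 in gland and 0.477 in whole larvae (log2, n = 3 each), against 0.189 and 0.290 for the other bright probe sets. The latter were brighter in whole larvae than the members. The 1444 non-members within the members' interquartile range of whole-larva level had a median SD of 0.419 there. Without gland replicate 3, the median SD of the members in gland was 0.113 and that of the other bright probe sets 0.098. Without whole-larva replicate 1, the medians in whole larvae were 0.310 and 0.219. For 76 members (75.2%) the SD was larger among whole-larva arrays than among gland arrays, as it was for 74.6% of all Anopheles probe sets.

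A few members differed strongly between gland arrays. Ag.2L.2204.0_CDS_s_at measured 7.34, 9.74 and 13.64 in gland, the widest spread of any member, and 6.25, 5.59 and 5.16 in whole larvae. Ag.3R.1766.0_CDS_at measured 10.15, 12.04 and 13.75 in gland and 8.22, 8.54 and 7.71 in whole larvae. In both, gland replicate 3 was the highest. Without it their differences were 2.88 and 2.94, against 4.58 and 3.83, and the gland mean of Ag.2L.2204.0_CDS_s_at was 8.54, under the level of the rule. Ag.3L.1594.0_CDS_at ran the other way, with 12.49, 12.12 and 10.22 in gland and 8.87, 6.22 and 7.42 in whole larvae, and Ag.3L.943.0_CDS_at, named after its values were seen, also had its lowest gland value on replicate 3 (13.37, 13.24 and 12.10). In all, 4 members (3.96%) had gland replicate 3 at least 2-fold above both other gland arrays and 2 (1.98%) had it at least 2-fold below. The shares were 2.05% and 3.84% among the other bright probe sets and 0.373% and 0.462% among all Anopheles ones.

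The steadiest members showed how small the spread could be. Ag.2R.438.1_CDS_a_at measured 10.93, 10.93 and 10.97 in gland and 8.68, 8.79 and 8.98 in whole larvae. Ag.3R.362.0_CDS_at measured 8.33, 8.35 and 8.33 in whole larvae, the smallest spread there, and 10.64, 10.59 and 10.82 in gland. Ag.3L.2011.0_CDS_at combined a high gland level with low spread, at 13.55, 13.57 and 13.62 in gland and 9.57, 9.84 and 9.53 in whole larvae, a difference of 3.93.

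Of the 6 members with unplaced _s_at identifiers, 3 had 1 whole-larva array far below the others, and the other 3 did not. Ag.UNKN.2210.0_s_at measured 10.49, 6.43 and 10.38 in whole larvae and 11.68, 11.86 and 12.02 in gland. Ag.UNKN.2219.0_s_at measured 8.21, 4.90 and 10.15 in whole larvae and 10.56, 11.30 and 11.05 in gland, and Ag.UNKN.2226.0_s_at 9.89, 6.86 and 9.85 in whole larvae and 10.55, 10.88 and 11.25 in gland. Whole-larva replicate 2 was by far the lowest array of each, and their differences of 2.76, 3.22 and 2.03 became 1.42, 1.79 and 1.02 without it. These 3 were among the 8 members that missed the limma threshold. They lie among 88 unplaced probe sets with numbers of 2200 or higher, a boundary drawn after the values were seen. The 10 bright ones among the 88, these 3 members included, had a median whole-larva SD of 1.77, against 0.31 for all 492 bright probe sets. Over all 88 the median was 0.44, against 0.22 for the other 1850 unplaced ones and 0.26 for all 16884. Whole-larva replicate 2 was the lowest array for 32 of the 88, for 876 of the other 1850 unplaced ones and for 6040 of all 16884.

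Members were found on every arm. Arm 3L held 27 (1.08% of its 2494 probe sets), 2L 21 (0.613%), 3R 20 (0.629%), 2R 16 (0.360%), X 10 (0.713%) and the unplaced class 7 (0.361%). As a share of the probe sets with a gland mean of at least 10, members were 27.6% on 3L, 28.6% on X, 24.1% on 3R, 20.4% on 2L, 10.8% on 2R and 28% (7 of 25) in the unplaced class. The median difference of the members was 3.95 on 3L and 2.55 on 3R. Neighbouring members may not be independent, and no arm is called different.

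Several members carried neighbouring identifier numbers, although the sources used here do not say whether the numbers follow positions on the chromosome. In 5 pairs on placed arms the numbers were consecutive, with number 1595 on 3L counted with both 1594 and 1596. Such pairs were not counted among other probe sets, so whether 5 is many is not known. The longest consecutive run was on 3L, at numbers 1594, 1595 and 1596, and number 1592 was also a member. Numbers 1592, 1594, 1595 and 1596 had gland means of 12.64, 11.61, 13.71 and 13.74 and differences of 4.69, 4.11, 4.41 and 4.80. Ag.3L.1593.0_CDS_at, between 1592 and 1594 and named after its values were seen, was dim in both tissues, with a gland mean of 5.59 and a difference of -0.45. Ag.3L.1594.0_CDS_at also differed from Ag.3L.1595.0_CDS_at and Ag.3L.1596.0_CDS_at in having a low value on gland replicate 3, while theirs were 13.74 and 13.71. Ag.3L.1592.0_CDS_at had its lowest gland value on replicate 3 too, by less (12.71, 12.88 and 12.33).

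On the X chromosome, Ag.X.814.0_CDS_at and Ag.X.815.0_CDS_at were consecutive. The second measured 13.77, 13.79 and 14.23 in gland and 8.93, 9.99 and 8.88 in whole larvae, a difference of 4.66. On 2L, Ag.2L.2759.0_CDS_at and Ag.2L.2760.0_CDS_at followed each other closely on all 6 arrays. The first had a gland mean of 13.44 ± 0.64 and a whole-larva mean of 9.23 ± 0.92, and the second 13.33 ± 0.53 and 9.19 ± 0.79 (SD, n = 3 each). Ag.2L.2199.0_CDS_at, a member on the same arm with a distant number, had values close to those of Ag.2L.2759.0_CDS_at too. It measured 12.84, 13.33 and 14.11 in gland and 8.54, 9.98 and 9.39 in whole larvae. Close values on 2L were thus not limited to consecutive numbers. All 3 of these 2L members were named after their values were seen. Whether the probes of neighbouring identifiers share sequence was not tested, as probe sequences were not used here.

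The members carried 98 distinct combinations of arm and number, and 83 members were the only probe set of theirs. In 3 cases both probe sets of a number were members. Ag.3R.1419.0_CDS_at and Ag.3R.1419.0_CDS_s_at gave differences of 2.78 and 2.63, and Ag.X.310.0_CDS_at and Ag.X.310.0_UTR_at gave 2.72 and 2.46. Ag.3L.1783.0_CDS_at and Ag.3L.1783.1_CDS_at, variants of 1 number, gave 3.67 and 4.74. The second variant measured 13.45, 13.35 and 13.78 in gland and 8.73, 9.14 and 8.49 in whole larvae.

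Another 12 members shared arm and number with 16 probe sets that were not members. Of these 16, 10 were at least 2-fold higher in gland, against 3.92% of all Anopheles probe sets, and 11 had every gland array above every whole-larva array, against 24%. Probe sets of 1 number may report on the same transcript, so they are not independent of the members. The partner of Ag.3L.1690.1_CDS_at differed by 3.76 beside the member's 4.34, that of Ag.3L.1742.1_s_at by 3.36 beside 4.03, and that of Ag.2R.1156.0_CDS_at by 2.84 beside 2.94. All 16 were named by no rule other than sharing a number, and these 3 were picked after their values were seen.

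The other 6 partners differed by less than 2-fold or were lower in gland. Of the 12 partners with a gland mean of at least 7, 10 were at least 2-fold higher, as were 0 of the 4 under 7. The gland mean is part of the difference, so this split cannot show whether level mattered. RMA values can understate differences of dim probe sets, and the part of this in the partners was not tested. Ag.3R.776.0_UTR_at and Ag.2L.1123.2_CDS_at, described below, lay under 7 in gland, while Ag.3R.522.0_CDS_at, at 7.71, differed by -0.14. Ag.2R.463.1_CDS_at, Ag.2R.463.2_CDS_at and Ag.2R.463.3_CDS_at, also among the 6, share 1 number. Ag.3R.776.0_CDS_at measured 10.51, 10.53 and 10.02 in gland and 6.33, 7.07 and 6.40 in whole larvae, while Ag.3R.776.0_UTR_at, of the same number and variant, measured 5.66, 6.10 and 6.13 in gland and 5.97, 5.80 and 6.02 in whole larvae. The coding probe set thus differed by 3.75 and the UTR probe set by 0.037. Ag.2L.1123.0_CDS_a_at differed by 2.77 at a gland mean of 13.62, and Ag.2L.1123.2_CDS_at, another variant, by -0.74 at 5.58. The 3 partners with a gland mean of at least 10, all UTR probe sets on 3L at numbers 130 and 150, were brighter than their members in gland and differed by less, by 1.17, 1.05 and 1.48.

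**Figure D5:**
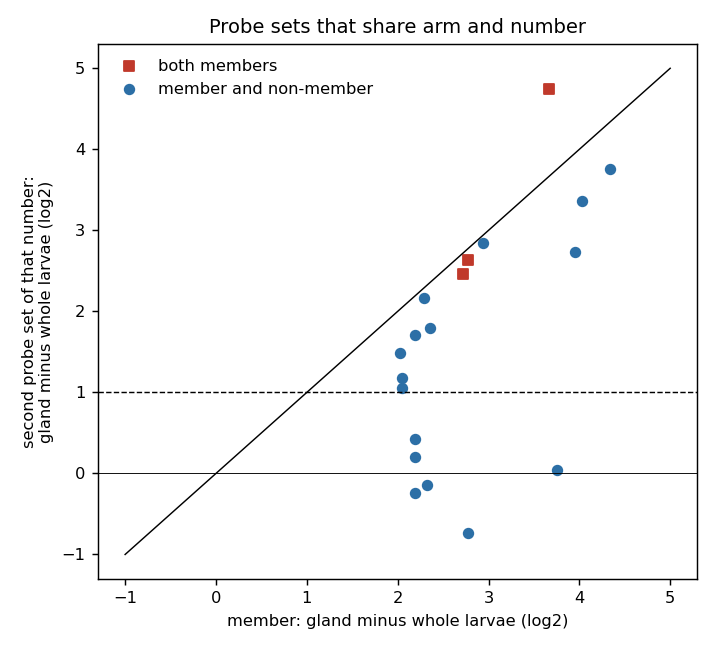
Gland minus whole-larva difference (log2) of each member (horizontal axis) and of another probe set with the same arm and number (vertical axis). Red squares are pairs in which both are members and blue circles pairs with a non-member; the solid line marks equal differences and the dashed line a 2-fold rise, which 10 of the 16 non-members reached.

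Of the 101, 87 were named as coding (86.1%, against 83.3% of all Anopheles probe sets), 3 as UTR (2.97% against 4.68%) and 11 as neither (10.9% against 12.0%). The suffix was _at for 74 (73.3% against 72.1%), _a_at for 15 (14.9% against 19.7%) and _s_at for 12 (11.9% against 8.14%). Among probe sets with a gland mean of at least 10, 26.5% of the coding ones and 3.41% of the UTR ones were members. As a share of all probe sets of a suffix, members were 0.608% of _at, 0.451% of _a_at and 0.873% of _s_at.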

How the data were processed

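Transcripts were measured on 6 arrays, 3 of gland and 3 of whole larvae. Per the labels, cDNA was made from 5 µg of total RNA, amplified by in vitro transcription and labelled with biotin. The deposited values are log2 values (2.46 to 14.85) made by RMA, per the submitters' processing notes; the sources used here do not give its settings or say if the 6 arrays went through it jointly. RMA values can understate differences of dim and of very bright probe sets, and the number of arrays limits the precision.

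The rule was applied to the deposited values of the 16884 rows whose identifier starts with Ag. The members, lists and tests were chosen with earlier results of these data known. Signal shares are sums of anti-logged values, per array. The gland against whole-larva fit used limma 3.58.1 in R 4.3.3 (lmFit, eBayes with trend, group as the only term) over all 16884 rows with Benjamini-Hochberg adjustment, and was tested on simulated data. Other work used Python 3.11.15. Probe sets were named by rank (the 10 with the highest gland mean or the largest difference), by shared number, by closeness to a threshold and by the extremes of replicate SD, with exceptions stated. Lists by gene function were not used, since no identifier matched a gene. Identical arrays were looked for and 0 pairs found. Array batches: not given in the sources used here. Whether replicate numbers paired the samples is not known. The correlation of the deviations of gland and whole-larva arrays of the same number was 0.10, -0.087 and -0.0022. Arrays of different numbers were not compared, so these values cannot decide it. Alternatives were other thresholds, scalings, suffixes, floors and each array left out; other scalings of the array pattern were added after the data were seen.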

Additional observations from a re-analysis of the deposited data

How the results depend on the processing

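Of 76 alternatives over 9 results, 71 stayed within the limit set for each (1.5 times for a count, 1 SD otherwise) and 0 reversed. The results were counts, shares, SDs and a median difference of members chosen by that difference. Reversal was thus hardly possible, and its absence says little. The number of members was 62 at a gland level of at least 11, 52 at a difference of at least 3 and 64 after centring on the numeric-identifier median, each a subset of the 101. It was 135 after quantile normalization was applied again, with 100 shared. With 1 array left out it ran from 92 to 111, and the fewest shared, 87, came without gland replicate 3. The gland signal share ran from 13.7% to 16.3% and the whole-larva share from 1.53% to 1.82% with 1 array left out. Members called by limma ran from 63, without gland replicate 2, to 95 with 1 array left out. They numbered 92 with a replicate block, though it is not known whether the replicate numbers pair samples, and 97 at an adjusted p under 0.05. Partners at least 4-fold higher in gland were 5, and those at least 2-fold higher ran from 8 to 10 with 1 array left out. The median difference ran from 2.88 to 3.30 with 1 array left out and was 3.44 after quantile normalization was applied again. With 1 array left out, the median gland SD ran from 0.113 to 0.336 and the median whole-larva SD from 0.310 to 0.394, a spread over 2 arrays in place of 3. Gland replicate 3 was highest for 73 to 79 members under 4 other scalings, added after the data were seen. The causes were not tested.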
